A study of Mus musculus with 4 samples.

Results

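CD8 T cells are the lymphocytes that carry the CD8 co-receptor and kill cells whose class I MHC molecules present a foreign or mutated peptide. They made up 163 of the 23294 barcodes kept from 4 single-cell libraries of cells sorted from tumours. They were chosen by their counts: at least 500 genes and at most 10% mitochondrial UMIs, at least 1 UMI of Cd8a or Cd8b1, at least 1 UMI of the CD3 genes Cd3e, Cd3d and Cd3g, no UMI of Foxp3 or of Trdc, and less than 1% of UMIs from the 5 macrophage genes C1qa, C1qb, C1qc, Apoe and Lyz2. A UMI is a unique molecular identifier and counts 1 captured transcript. The files hold 30053 barcodes in all, and 7 CD8 T cells came from the PBS library, 50 from cisplatin day 1, 89 from cisplatin day 3 and 17 from cisplatin day 7. The Cd8, CD3, Foxp3, Trdc and macrophage gene counts are therefore the choice itself and are described without a test.

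CD8 T cells that meet their antigen become effector cells that release perforin, which opens the membrane of the target, and granzymes, serine proteases that enter through it and start cell death. They also secrete interferon gamma, tumour necrosis factor and chemokines. Repeated stimulation, as in tumours, brings inhibitory receptors such as PD-1 (Pdcd1), LAG-3 and TIM-3 (Havcr2) to their surface, while the transcription factor TCF-1 (Tcf7) marks cells that keep the capacity to renew. Type I interferon acts on almost every cell through a common receptor and switches on antiviral genes such as Isg15 and the Ifit family.

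The mice were wild type, of the strain labelled C57/bl6, and all 4 groups carried a tumour grown from 300000 injected TC-1 cells, a mouse tumour line. Once the tumour measured 40 mm2 the animals were given PBS or a single intraperitoneal dose of cisplatin, a DNA-crosslinking drug, at 6 mg per kg. Cisplatin-treated tumours were taken after 1, 3 or 7 days. The PBS library has no day in its labels and is also labelled as untreated. Each library was loaded with 15000 cells from a sort for the leukocyte protein CD45, for CD90 and for CD127 and against lineage proteins, which the labels call innate lymphoid cells. The antibodies in the lineage set, the number of mice and whether animals were pooled are not given in the labels. The libraries were made with a droplet kit that reads the 3' ends of transcripts. With 1 library in each group, no difference between days has a replicate check, and every interval given for a level, a ratio or a share covers counting error only.

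Marker genes outside the rule matched the label of the CD8 T cells in most members, and T cell genes were scarce in 8. Of the 163 cells, 130 held the T cell receptor constant gene Trac, and 129 held Nkg7, a granule protein of killer lymphocytes. By the rule itself each held Cd8 and CD3 UMIs, with Cd8b1 in 133, Cd8a in 125 and Cd3d in 153. Cd4 was found in 8 cells, 3 at day 1 and 5 at day 3. The genes of the sort itself were present: Il7r, which encodes CD127, was found in 5 PBS, 33 day 1, 48 day 3 and 5 day 7 cells, and Thy1, which encodes CD90, in 5, 35, 68 and 14 cells of those libraries. Defining genes of other lymphocytes were at 0 in the members, among them Sox13 and Il17a of gamma-delta T cells, Klra8 of NK cells and Cd79a and Ms4a1 of B cells.

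The 8 members poor in T cell genes had fewer than 5 UMIs of 15 T cell genes per 10000, and their highest rate was 4.47, against a lowest rate of 10.1 in the other 155. They lay in the day 1 library (7 barcodes) and the day 7 library (1 barcode), were set apart after their values were seen, and are called T-poor here. They held 43.4% of the day 1 members' UMIs and 23.5% of those at day 7. A pair of day 1 barcodes with 77869 and 73714 UMIs had 1 Cd8 UMI and 1 CD3 UMI each and none of the leukocyte gene Ptprc. A further 4 held 18 to 31 UMIs of Fscn1, an actin-bundling gene of mature dendritic cells, and the day 7 barcode held 35 UMIs of the collagen gene Col3a1. Leaving out the T-poor barcodes leaves 43 cells at day 1 and 16 at day 7, and log2 ratios that involve these days are given with all members and without those barcodes. Levels and UMI counts are those of all members where nothing else is said.

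The other limits on these cells are their number and the RNA of neighbouring cells. The members' summed UMIs were 28253 in PBS, 502009 at day 1, 656101 at day 3 and 57876 at day 7, and 3 counts, the smallest sum read here, correspond to 106, 5.98, 4.57 and 51.8 CPM, counts scaled to the usual per-million total. In PBS a single cell gave 45.3% of the UMIs, and 6 of the 7 PBS cells had exactly 1 Cd8 UMI. That deepest PBS cell held 1 Cd8 UMI and 0 UMIs of Nkg7, Ccl5 and Gzmb. The PBS levels of these genes are therefore lower with it than without it. Among all members 44 had exactly 1 Cd8 UMI and 119 had more. The member nearest to the macrophage limit had 0.999% macrophage RNA and the nearest barcode left out had 1.002%. A list of 20 macrophage genes still summed to 10689 CPM in PBS, 10032 at day 1, 8860 at day 3 and 7983 at day 7, so macrophage transcripts were in the droplets of all 4 libraries. The libraries shared 4 to 32 barcode sequences in pairs, none of them between members.

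CD8 T cells took a larger share of the kept barcodes after cisplatin than with PBS, and the share was highest at day 3. They were 7 of 8075 kept barcodes in PBS (0.0867%, exact binomial 95% interval 0.0349 to 0.179%), 50 of 7484 at day 1 (0.668%, 0.496 to 0.880%), 89 of 4964 at day 3 (1.79%, 1.44 to 2.20%) and 17 of 2771 at day 7 (0.613%, 0.358 to 0.980%). Over the CD3-bearing barcodes under the same macrophage limit, the order of the later days was different. There the CD8 T cells were 7 of 188 (3.72%) in PBS, 50 of 457 (10.9%) at day 1, 89 of 719 (12.4%) at day 3 and 17 of 117 (14.5%, 8.70 to 22.2%) at day 7, and the exact intervals of days 1 (8.23 to 14.2%), 3 (10.1 to 15%) and 7 overlapped. T cells with Foxp3, the gene of regulatory T cells, were 0.768%, 1.70%, 3.06% and 1.15% of kept barcodes in those libraries, and T cells with Trdc, the delta-chain gene, 0.186%, 0.521%, 1.85% and 0.469%.

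**Figure D1:**
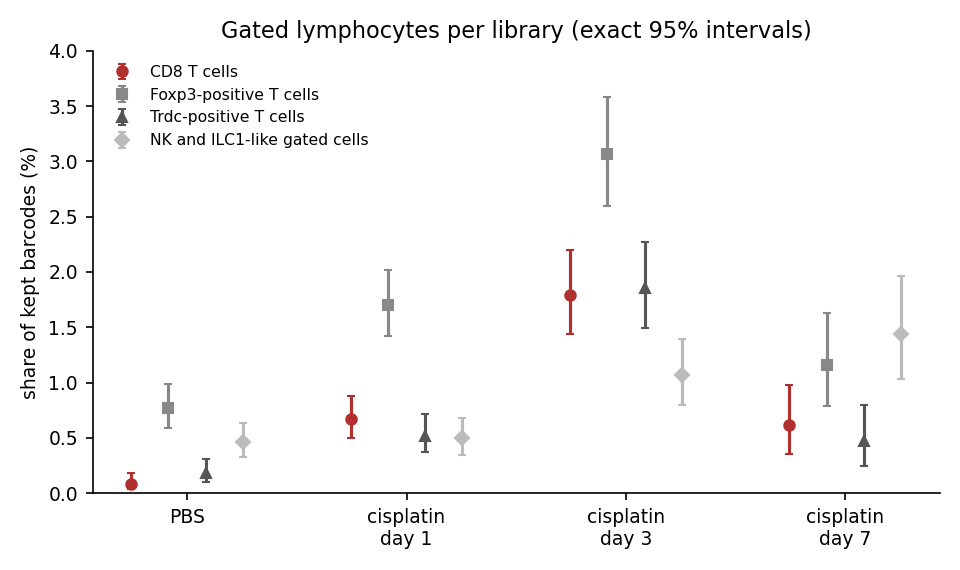
Share of kept barcodes (percent, y axis) taken by CD8 T cells and by Foxp3-positive T cells, Trdc-positive T cells and NK and ILC1-like gated cells in each of the 4 libraries; points are the shares and bars the exact 95% binomial interval. CD8 T cells ran 0.0867%, 0.668%, 1.79% and 0.613% over PBS and days 1, 3 and 7.

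The share depends on the macrophage limit, which was not neutral between libraries. Of the barcodes that met every other condition, the limit left out 19 of 26 in PBS (73.1%), 155 of 205 at day 1 (75.6%), 86 of 175 at day 3 (49.1%) and 22 of 39 at day 7 (56.4%). The median share of the 5 macrophage genes over all kept barcodes was 3.14% in PBS, 3.29% at day 1, 1.86% at day 3 and 3.68% at day 7, lowest in the library where the limit removed the smallest part. Below the limit lay 1014 of 8075 kept barcodes in PBS, 1018 of 7484 at day 1, 1547 of 4964 at day 3 and 408 of 2771 at day 7. The share in a library also depends on how many other cells passed the sort, so more CD8 T cells and fewer of the others cannot be told apart. Depth differed as well, and a rule that needs 1 Cd8 UMI depends on it. Other CD3-bearing barcodes below the limit had medians of 2205 UMIs in PBS, 3955 at day 1, 3466 at day 3 and 2109.5 at day 7. The part of depth in the shares was not tested. Without the T-poor barcodes the members were 43 of 7484 kept barcodes at day 1 and 16 of 2771 at day 7.

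Of the granule genes, through which CD8 T cells kill, Gzmf, Gzmd, Gzmc, Gzmb and Prf1 had their highest levels at days 1 and 3 and were low or undetected in PBS and at day 7, while Nkg7 and Gzma did not follow this order. Mouse granzymes D, E and F are closely similar proteases encoded near granzymes B and C on chromosome 14, and counts of Gzmd, Gzme and Gzmf are uncertain between them: the last 300 bases of the annotated transcripts, where a 3' kit reads, were 95.4% identical between Gzmd and Gzme, 89.1% between Gzmd and Gzmf and 91.0% between Gzme and Gzmf. Gzmf (ENSMUSG00000015441) lies at chr14:56205263-56211417 on the minus strand of mm10, Gzmd at chr14:56129556-56132608 and Gzmb at chr14:56258838-56262260. Their promoters, from RefSeq on GRCm38.p6, are shown as examples from the granule genes whose levels differed between days. Each runs from 250 bases before to 50 bases after the start of the gene, 5' to 3' on the gene's own strand. Matches to the RUNX core TGTGGT, or its reverse complement ACCACA, are in capitals.
Gzmf, chr14:56211358-56211657, minus strand: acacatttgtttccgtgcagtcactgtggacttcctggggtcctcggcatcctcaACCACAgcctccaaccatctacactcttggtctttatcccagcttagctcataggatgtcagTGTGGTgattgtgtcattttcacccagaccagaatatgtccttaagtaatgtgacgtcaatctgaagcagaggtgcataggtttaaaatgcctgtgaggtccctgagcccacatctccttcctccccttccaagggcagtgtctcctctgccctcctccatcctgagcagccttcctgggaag
Gzmd, chr14:56132544-56132843, minus strand: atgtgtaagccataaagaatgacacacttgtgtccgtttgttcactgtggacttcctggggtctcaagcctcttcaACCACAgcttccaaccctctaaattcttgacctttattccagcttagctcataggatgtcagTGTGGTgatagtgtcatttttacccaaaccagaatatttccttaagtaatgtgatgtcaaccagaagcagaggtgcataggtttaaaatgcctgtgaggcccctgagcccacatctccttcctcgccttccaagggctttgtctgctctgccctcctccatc
Gzmb, chr14:56262285-56262584, minus strand: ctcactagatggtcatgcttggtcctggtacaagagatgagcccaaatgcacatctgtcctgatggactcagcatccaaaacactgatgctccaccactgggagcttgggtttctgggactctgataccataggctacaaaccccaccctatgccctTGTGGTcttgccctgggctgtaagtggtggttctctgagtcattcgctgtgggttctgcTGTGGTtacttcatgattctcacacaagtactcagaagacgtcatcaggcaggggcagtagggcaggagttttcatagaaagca
Each of the 3 windows held 2 matches, as did those of Gzmc, Gzme and Gzmg, while Prf1 and Nkg7 held 1 and Gzmn, Gzmk and Cd8a none. Of 32851 mouse promoter windows of this length, 16.8% held at least 1 match, and a match is a string of letters and not a shown binding site. The Gzmd and Gzmf windows were 88.9% identical over their aligned bases and those of Gzmd and Gzme 94.0%, so the matches in these 3 genes are not independent. The AP-1 site TGANTCA, its own reverse complement, was also searched, and it had 1 match in the Gzmb window and none in those of Gzmc, Gzmd, Gzme, Gzmf and Gzmg, against 7.81% of all windows.

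Granzyme F was not detected in the PBS and day 7 cells and was abundant in a few cells at days 1 and 3. Gzmf had 0 UMIs in PBS, 546 UMIs in 8 of 50 cells at day 1, 1310 UMIs in 14 of 89 cells at day 3 and 0 UMIs in 17 cells at day 7, which is 0, 1088, 1997 and 0 CPM. At both days most of it lay in few cells, the 4 richest cells holding 93.4% of the UMIs at day 1 and 81.4% at day 3. Gzmf bounds were computed against a floor of 3 counts in the sum without Gzmf UMIs. The summed level was at least 10.2-fold higher at day 1 and at least 18.8-fold higher at day 3 than in PBS. It was at least 38.5-fold lower at day 7 than at day 3. Without the T-poor barcodes the bounds were 18.1-fold for day 1 over PBS and 29.5-fold for day 7 below day 3. These bounds hold for the summed UMIs of the cells captured. They do not cover the sampling of cells, and few cells held most of the Gzmf UMIs. Among the 22 day 7 barcodes left out by the macrophage limit, 4 held Gzmf. Day 3 exceeded day 1 by 0.88 on the log2 scale with all members (95% interval 0.73 to 1.02). Without the T-poor barcodes the day 1 level was 1921 CPM, and the days differed by 0.06 (-0.09 to 0.20), within counting error. With 7 and 17 cells in the outer libraries, a share of Gzmf-bearing cells like the 15.9% of day 3 cells thinned to 1500 UMIs could go unseen: taking 3 cells of the total as the limit that a count of 0 allows, 0 of 7 thinned cells allows a share of up to 42.9% in PBS, and 0 of 16 up to 18.8% at day 7.

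The other granzymes of the chromosome 14 cluster fell into 2 patterns. Gzmd had 0, 234, 167 and 0 UMIs over PBS, day 1, day 3 and day 7, and Gzmc had 2, 217, 147 and 2. Both were highest at day 1, and without the T-poor barcodes they were lower at day 3 than at day 1 by a log2 ratio of -1.69 (-1.99 to -1.40) for Gzmd and -1.77 (-2.08 to -1.46) for Gzmc. With all members these ratios were -0.87 (-1.17 to -0.58) and -0.95 (-1.26 to -0.64). Gzmb, the best known granzyme, was found in most cells at day 3. It had 4 UMIs in 1 PBS cell, 196 in 18 cells at day 1, 779 in 60 cells at day 3 and 6 in 4 cells at day 7, or 142, 390, 1187 and 104 CPM. Its log2 ratio was 3.07 (1.71 to 4.95) for day 3 over PBS, 0.79 (0.56 to 1.03) for day 3 over day 1 without the T-poor barcodes, and -3.13 (-4.58 to -2.0) for day 7 over day 3 on the same terms. With all members the last pair of ratios was 1.60 (1.38 to 1.84) and -3.52 (-4.97 to -2.39). After thinning every cell to 1500 UMIs, Gzmb was seen in 14.3%, 26%, 46.6% and 18.8% of CD8 T cells, against 0.102%, 1.47%, 2.26% and 0.532% of non-lymphoid barcodes. The name non-lymphoid is used here for kept barcodes without a UMI of the CD3 genes, Cd8a, Cd8b1, Ncr1 or Klrb1c. Lymphocytes in which these genes went undetected can be among them. Median depths were 2744, 5623.5, 6211 and 2856 UMIs in the CD8 T cells and 6322.5, 8945.5, 6249 and 5118.5 UMIs in the non-lymphoid barcodes. The unthinned shares were 14.3%, 36%, 67.4% and 23.5%, and thinning left out 1 cell at day 3 and 1 at day 7.

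Perforin transcripts, like those of Gzmf, were found at days 1 and 3 alone, and those of Nkg7 in all 4 libraries. Prf1, which encodes perforin, had 0, 43, 114 and 0 UMIs, from 13 cells at day 1 and 34 at day 3, and its log2 ratio of day 3 over day 1 was 1.02 (0.50 to 1.56) with all members and 0.20 (-0.32 to 0.74), within counting error, without the T-poor barcodes. With all members the day 1 level of Prf1 lay below the PBS floor of 106 CPM, and without the T-poor barcodes above it. The 0 UMIs in PBS therefore do not set PBS apart from day 1 with all members. Nkg7 was found in 3 of 7, 37 of 50, 75 of 89 and 14 of 17 cells, with 460, 528, 1328 and 1451 CPM. It was 1.66 (0.81 to 2.62) higher on the log2 scale at day 7 than in PBS with all members, and 2.04 (1.19 to 3.01) without the T-poor barcode. The deepest PBS cell, with 12785 of the 28253 PBS UMIs, held 0 Nkg7 UMIs, and these ratios would be smaller without it. Granzyme A, encoded on chromosome 13, had 4, 5, 144 and 0 UMIs, but 103 of the 144 at day 3 came from 1 cell. CD8 T cells at day 7 thus held Nkg7 transcripts in most cells, with 0 UMIs of Gzmf, Gzmd, Gzma and Prf1 in 57876 UMIs.

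**Figure D2:**
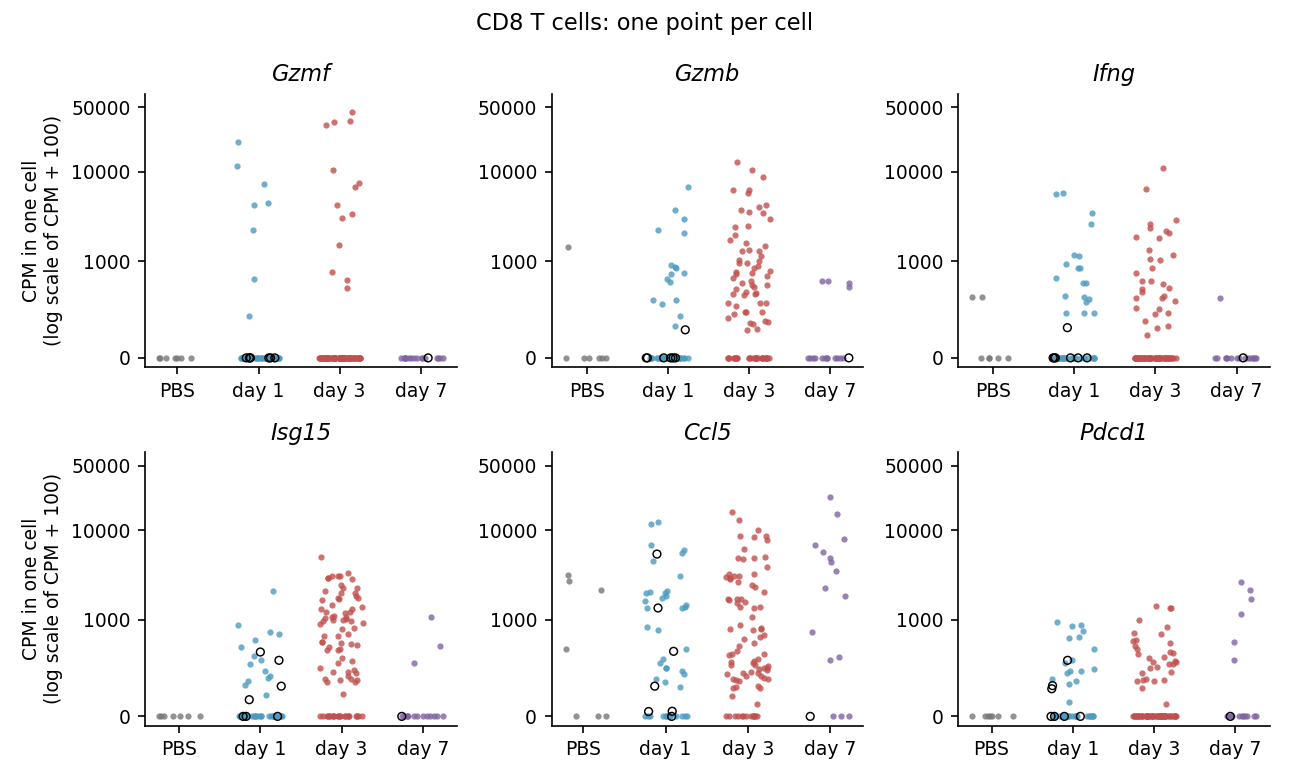
Level of Gzmf, Gzmb, Ifng, Isg15, Ccl5 and Pdcd1 in each of the 163 CD8 T cells (CPM plus 100, log scale, y axis) by library (x axis); each circle is a cell and open circles are the T-poor barcodes. Gzmf is at 0 in every PBS and day 7 cell and exceeds 10000 CPM in a few cells at days 1 and 3, while Isg15 lies above 0 in most day 3 cells.

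The 22 cells with a Gzmf UMI, 8 at day 1 and 14 at day 3, differed from the 110 other CD8 T cells of those libraries without the T-poor barcodes in more than the granzymes. Gzmd was found in 16 of 22 Gzmf-bearing cells (72.7%) and in 4 of 110 others (3.64%), Gzmb in 20 and 57, and Prf1 in 17 and 30. Genes of inhibitory receptors were frequent in the Gzmf-bearing cells: Pdcd1 in 18 of 22 (81.8%) against 32 of 110 (29.1%), Lag3 in 16 against 25, Havcr2 in 14 against 22 and Ctla4 in 16 against 29. Ifng was found in 18 of 22 against 34 of 110. Tcf7 was found in 0 of 22 Gzmf-bearing cells and 39 of 110 others (35.5%). Klf2, a factor of circulating T cells, was in 10 and 66 and Il7r in 16 and 61.

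These differences are descriptions with no test, since cells of 1 library are not replicates and Gzmf was one of the markers picked for CD8 T cells. Median UMIs were 6203 in Gzmf-bearing and 4812 in other cells at day 1, and 6621 and 5846 at day 3. Lyz2, a macrophage gene, was in 22 of 22 and 105 of 110 cells. The companions of Gzmf were not all the same in the 2 libraries. Gzmd and Gzme went with Gzmf in both: cells with either were 7 of 8 Gzmf-bearing against 1 of 35 other cells at day 1, and 9 of 14 against 3 of 75 at day 3. Gzmc reached 2886 CPM in Gzmf-bearing and 42.4 CPM in other cells at day 1, and 1071 and 54.9 CPM at day 3. Ifng was lower in Gzmf-bearing cells at day 1, at 305 CPM against 537 CPM (log2 ratio -0.82, -1.55 to -0.15), and higher at day 3, at 668 CPM against 406 CPM (0.72, 0.32 to 1.11). Klf2 was lower in Gzmf-bearing cells at day 1, with a log2 ratio of -2.85 (-4.50 to -1.58), while at day 3 the ratio of 0.27 (-0.12 to 0.64) lay within counting error. The 6 granzymes B to G together made up 1.69% of the Gzmf-bearing cells' UMIs at day 1 and 1.71% at day 3. The receptor constant gene Trbc1 was in 4 of 22 Gzmf-bearing cells (18.2%) and 49 of 110 others (44.5%), and Trbc2 in 21 and 102.

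**Figure D3:**
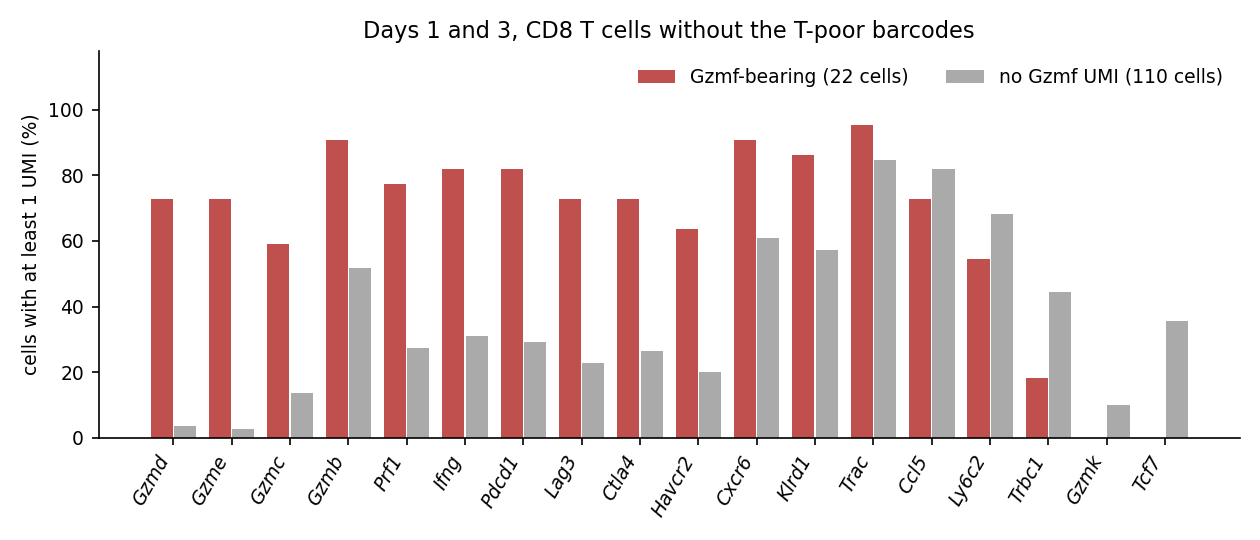
Percent of cells with at least 1 UMI (y axis) of each of 18 genes (x axis) in the 22 Gzmf-bearing CD8 T cells (red bars) and the 110 other CD8 T cells of days 1 and 3 without T-poor barcodes (grey bars). Gzmd, Gzmb, Pdcd1 and Ifng are more frequent in Gzmf-bearing cells, and Tcf7 was found in none of them.

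Transcripts of interferon gamma had their highest levels at days 1 and 3, those of the chemokines Ccl3 and Ccl4 at day 3, and those of Ccl5 at day 7. Ifng had 2, 137, 295 and 1 UMIs in 2, 20, 33 and 1 cells. Its level was 70.8, 273, 450 and 17.3 CPM, and day 3 and day 1 differed by 0.72 (0.42 to 1.02) on the log2 scale with all members and by -0.09 (-0.39 to 0.21) without the T-poor barcodes. At day 7 it was lower than at day 3, with a log2 ratio that rests on 1 UMI, -4.70 (-10.0 to -2.21) with all members and -4.32 (-9.62 to -1.83) without the T-poor barcode. Thinned shares with Ifng were 0%, 26%, 21.6% and 6.25% of CD8 T cells, unthinned 28.6%, 40%, 37.1% and 5.88%, against at most 1.51% of non-lymphoid barcodes. Ccl4, which attracts other leukocytes, had 1, 141, 1066 and 20 UMIs, or 35.4, 281, 1625 and 346 CPM, and 471 CPM at day 1 and 429 CPM at day 7 without the T-poor barcodes. Of its day 3 UMIs 362 came from 1 cell, and its ratio of day 3 over PBS, 5.52 (3.04 to 10.8) on the log2 scale, rests on that single PBS UMI. Ccl3, a related chemokine, had 3, 82, 315 and 2 UMIs, or 106, 163, 480 and 34.6 CPM.

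The chemokine genes Ccl5 and Xcl1 did not share the low day 7 levels of the granzymes. Ccl5, a chemokine stored by memory and effector CD8 T cells, was at 849, 845, 1445 and 3801 CPM in 4, 36, 76 and 13 cells. It was higher at day 7 than at day 3 by a log2 ratio of 1.78 (1.56 to 1.99) without the T-poor barcodes and 1.40 (1.18 to 1.61) with them. After thinning, Ccl5 was in 57.1%, 54%, 55.7% and 68.8% of CD8 T cells and in 5.2%, 14.4%, 42.9% and 16.1% of non-lymphoid barcodes, unthinned 57.1%, 72%, 85.4% and 76.5% of the CD8 T cells. Macrophage RNA, estimated as described for the interferon genes, would account for 1.5%, 3.73%, 13.5% and 0.922% of the Ccl5 UMIs. Xcl1, which draws cross-presenting dendritic cells, had 1, 6, 109 and 23 UMIs, in 20 of 89 cells at day 3 and 6 of 17 at day 7, and was at 397 CPM at day 7 against 166 CPM at day 3.

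Among receptors and factors of T cell state, Pdcd1 had its highest level at day 7, on too few UMIs to enter the counts of called genes, and Havcr2 and Lag3 were near the floor there. Pdcd1 had 0 UMIs in 7 PBS cells, 47 UMIs in 20 cells at day 1, 98 in 33 cells at day 3 and 22 in 6 cells at day 7, or 0, 93.6, 149 and 380 CPM. Its log2 ratio for day 7 over day 3 was 1.35 (0.61 to 2.03) with all members and 1.73 (1.00 to 2.41) without the T-poor barcode. For day 3 over day 1 it was 0.67 (0.16 to 1.21) with all members and 0.02 (-0.52 to 0.57) without. One day 7 cell gave 8 of the 22 UMIs. Thinned shares were 0%, 14%, 19.3% and 37.5%, unthinned 0%, 40%, 37.1% and 35.3%, with overlapping exact intervals at days 3 (11.7 to 29.1%) and 7 (15.2 to 64.6%), and at most 0.852% of non-lymphoid barcodes held it. Lag3 had 1, 42, 77 and 3 UMIs and Havcr2 0, 24, 53 and 1.

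Tcf7 was low in every library, at 177, 67.7, 61.0 and 121 CPM from 5, 34, 40 and 7 UMIs, and none of the 5 comparisons (days 1, 3 and 7 over PBS, day 3 over day 1 and day 7 over day 3) exceeded counting error. Il7r, the receptor of the survival cytokine interleukin 7, was at 708, 233, 261 and 104 CPM in PBS and at days 1, 3 and 7. Its log2 ratio over PBS was -0.98 (-1.68 to -0.21) at day 1 without the T-poor barcodes, -1.44 (-2.11 to -0.69) at day 3 and -2.39 (-3.99 to -1.02) at day 7 without the T-poor barcode. With all members it was -1.60 (-2.29 to -0.84) at day 1 and -2.77 (-4.38 to -1.40) at day 7. Il7r levels were thus below those in PBS at all 3 days, although its protein CD127 was part of the sort, and the day 1 interval reaches 0 once TMM scaling adds 0.37 to each of its log2 values. Klf2 was at 319, 277, 590 and 1814 CPM, and its log2 ratio was 1.62 (1.3 to 1.94) for day 7 over day 3 with all members and 2.01 (1.68 to 2.32) without the T-poor barcode. The tissue-homing receptor gene Cxcr6 was at 212, 247, 357 and 156 CPM, and its ratios over PBS did not exceed counting error.

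Genes induced by type I interferon were high at day 3 and low at day 1 and day 7. The interferon-stimulated response element bound by the ISGF3 complex gives these genes a shared promoter motif, so the windows of Isg15, which encodes a ubiquitin-like antiviral protein, and Ifit3, which encodes a protein that hinders viral RNA, are shown with matches to GAAANNGAA, a 9-letter part of that element in which N is any base, or to its reverse complement TTCNNTTTC, in capitals on the same scheme as above.
Isg15, chr4:156200769-156201068, minus strand: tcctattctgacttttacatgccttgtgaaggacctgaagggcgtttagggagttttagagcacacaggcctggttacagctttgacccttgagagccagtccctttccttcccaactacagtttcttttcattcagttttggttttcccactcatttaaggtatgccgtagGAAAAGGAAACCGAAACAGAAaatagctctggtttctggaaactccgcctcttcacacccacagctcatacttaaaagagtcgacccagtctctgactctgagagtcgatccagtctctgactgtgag
Ifit3, chr19:34583279-34583578, plus strand: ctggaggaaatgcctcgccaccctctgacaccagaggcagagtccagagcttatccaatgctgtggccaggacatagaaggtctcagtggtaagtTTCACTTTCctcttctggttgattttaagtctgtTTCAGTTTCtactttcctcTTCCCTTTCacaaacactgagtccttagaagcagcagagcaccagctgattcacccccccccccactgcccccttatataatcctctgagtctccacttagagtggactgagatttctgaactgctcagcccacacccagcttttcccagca
Isg15, Ifit3 and Ifit1 each held 3 matches, those of Isg15 overlapping, Rsad2 held 1, and Irf7 and Ifng held none, against 8.56% of the 32851 promoter windows with at least 1. Isg15 was found in 0 of 7 PBS cells, 19 of 50 at day 1, 67 of 89 at day 3 and 3 of 17 at day 7. Its 0, 48, 722 and 6 UMIs are 0, 95.6, 1100 and 104 CPM, at least 10.4-fold higher at day 3 than in PBS. Ifit3 had 1, 12, 249 and 4 UMIs and Irf7, the master factor of the interferon response, 4, 36, 415 and 7. Without the T-poor barcodes the log2 ratios of day 3 over day 1 were 3.12 (2.64 to 3.64) for Isg15, 3.58 (2.64 to 4.73) for Ifit3, 3.1 (2.47 to 3.81) for Irf7 and 3.07 (2.32 to 3.92) for Rsad2, an antiviral enzyme. Those of day 7 over day 3 were -3.02 (-4.47 to -1.89) for Isg15 and -2.0 (-3.32 to -0.95) for Irf7. With all members the ratios of day 3 over day 1 were 3.52 (3.1 to 3.98) for Isg15, 3.99 (3.16 to 4.96) for Ifit3, 3.14 (2.65 to 3.67) for Irf7 and 3.79 (3.07 to 4.62) for Rsad2, and those of day 7 over day 3 were -3.41 (-4.86 to -2.28) for Isg15 and -2.39 (-3.71 to -1.33) for Irf7.

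Most genes of the type I interferon list were higher at day 3 than at day 1, a far larger part than of all genes. A gene entered a comparison when at least 10 counts were to be expected in the smaller sum, and was called by size at a 2-fold ratio. In day 3 over day 1 without the T-poor barcodes, 376 of 3687 genes were called (10.2%), 305 higher (8.27%) and 71 lower (1.93%). Of the 53 interferon genes measured, 48 entered and 40 of these were higher and 0 lower, with a median log2 ratio of 2.05 against 0.09 over all genes. With all members 1024 of 5510 genes were called (18.6%), 532 higher (9.66%) and 492 lower (8.93%), and 47 of 51 interferon genes that entered were higher, with a median of 2.38 against 0.01. A list of genes of interferon gamma and the class I pathway had 8 of 28 higher and 0 lower without the T-poor barcodes, with a median of 0.75, including Nlrc5, the class I transactivator, and the GTPase genes Gbp9 and Igtp.

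Isg15 was about as frequent in other cells of the sort as in CD8 T cells. After thinning to 1500 UMIs, Isg15 was found in 0%, 16%, 55.7% and 12.5% of CD8 T cells over PBS and days 1, 3 and 7, and in 11.4%, 15%, 60.6% and 16.7% of non-lymphoid barcodes; the unthinned shares of the CD8 T cells were 0%, 38%, 75.3% and 17.6%. Macrophage RNA, taken from the profile of non-lymphoid barcodes scaled to the members' own counts of the 5 macrophage genes, would account for 17.3% of the day 3 Isg15 UMIs, 15.5% of Ifit3, 22% of Irf7 and 22.3% of Cxcl10. It would account for 0.4% of Gzmb and 0.3% of Ifng, and for 15.4% of all UMIs.

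**Figure D4:**
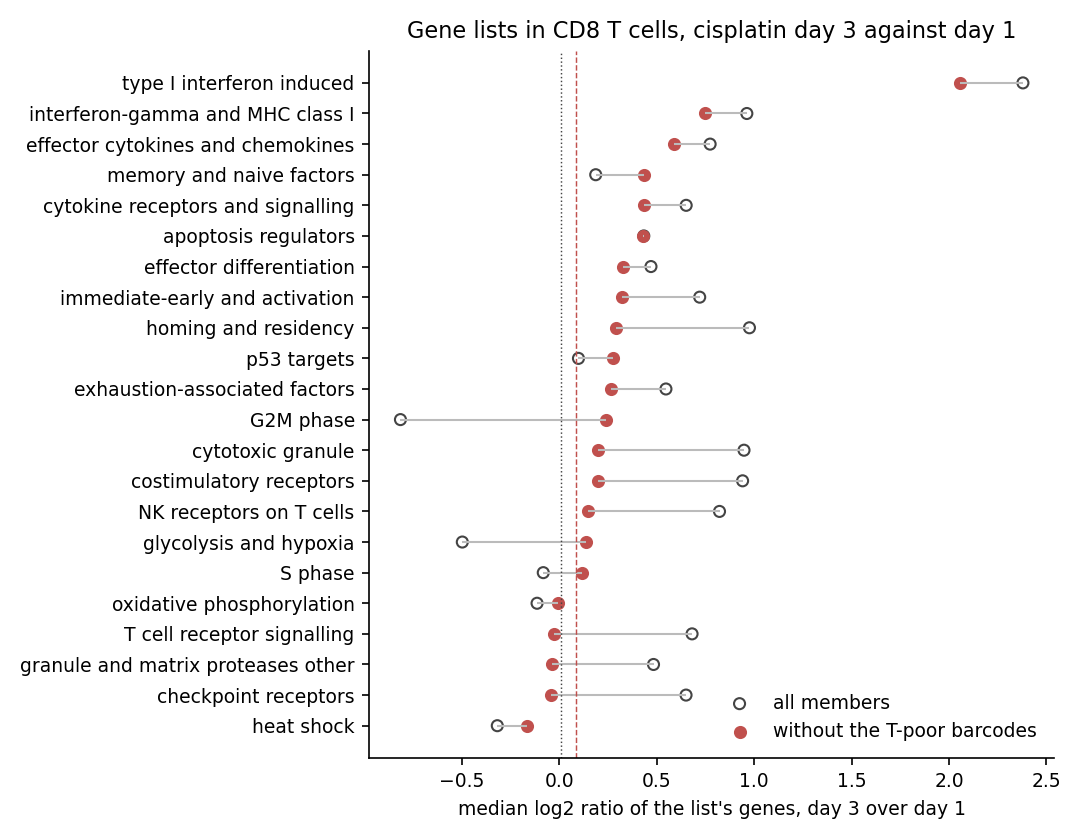
Median log2 ratio of day 3 over day 1 (x axis) for 22 gene lists (rows) over the genes of each list that entered the comparison; open circles are all members, filled circles are without T-poor barcodes, and the vertical lines mark the median of all genes that entered. The type I interferon list lies at 2.38 and 2.05, apart from the other lists, and the G2M list lies at -0.81 with all members and 0.24 without the T-poor barcodes.

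Genes of other lists were called between days 1 and 3 as well. Without the T-poor barcodes the cytotoxic granule list had 2 higher and 3 lower of 17 that entered, with a median of 0.20, and the T cell receptor signalling list, without the genes of the membership rule, 0 of 17 in either direction, with a median of -0.03. The checkpoint receptors had 2 higher of 10, the effector differentiation list 5 of 21, the cytokine list 3 of 10 and the oxidative phosphorylation genes 1 of 39, against the 8.27% of all genes called higher. With all members the calls were 9 higher and 1 lower of 18 granule genes and 12 lower of 36 genes of the G2M phase of the cell cycle, which without the T-poor barcodes had none of 20 called. Among surface proteins of activated T cells, Ly6c2 was at 319, 181, 1424 and 985 CPM over PBS and days 1, 3 and 7, and Ly6a had 5, 159, 1200 and 22 UMIs. Their log2 ratios of day 3 over day 1 without the T-poor barcodes were 2.15 (1.84 to 2.48) for Ly6c2 and 1.75 (1.5 to 2.0) for Ly6a, a gene that interferon induces, and with all members 2.97 (2.66 to 3.3) and 2.53 (2.29 to 2.78). Mki67, a proliferation gene, had 2, 26, 48 and 3 UMIs and its ratios did not exceed counting error in any of the 5 comparisons.

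Comparisons with PBS share that library and rest on its 7 cells, so they show only the largest differences. At day 3, 74 of 393 genes that entered were called (18.8%), 69 higher (17.6%) and 5 lower (1.27%). The granule list had 4 higher of 5 that entered (Gzmf, Gzmb, Nkg7 and Srgn, which encodes the granule proteoglycan). Gzmf and Nkg7 were among the markers picked for CD8 T cells, and Gzmf entered through its day 3 counts alone. The granule counts over PBS are therefore not independent of that choice. The cytokine list had 3 of 6 higher, the type I interferon list 7 of 11 with a median of 2.06, and the class I list 4 of 7 with a median of 1.1. The median over all genes was -0.02. H2-K1, a class I heavy chain, was at 4364 CPM at day 3 and 1487 CPM in PBS, a log2 ratio of 1.55 (1.12 to 2.03). At day 1, 52 of 358 genes were called with all members (14.5%), 42 higher (11.7%) and 10 lower (2.79%). Without the T-poor barcodes 32 of 355 were called (9.01%), 29 higher (8.17%) and 3 lower (0.845%). The direction of the calls depends on the scaling: TMM factors raised every log2 ratio by 0.37 at day 1 and 0.39 at day 3, and at day 1 gave 104 higher and 1 lower. The granule list then had 5 higher of 6 that entered, and no list had more than 1 gene lower. Since a gene can enter through the library in which it is high, these counts describe the genes that entered and not the whole lists.

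Few genes of the p53 response to DNA damage had enough counts to compare. Cdkn1a, the p53-induced inhibitor of cyclin-dependent kinases, was at 106, 464, 567 and 69.1 CPM, a log2 ratio for day 1 over PBS of 2.13 (0.56 to 4.42) with all members and 2.06 (0.48 to 4.36) without the T-poor barcodes, and of 2.42 (0.86 to 4.70) for day 3 over PBS. After thinning it was in 28.6%, 34%, 38.6% and 0% of CD8 T cells, below the 31.3%, 53.4%, 70.6% and 48.4% of non-lymphoid barcodes, and unthinned in 28.6%, 68%, 69.7% and 17.6% of the CD8 T cells. Macrophage RNA would account for 31.9% of its day 3 UMIs. Mdm2, another p53 target, had 4, 50, 91 and 2 UMIs and differed beyond counting error between no day and PBS. The myeloid genes Cxcl2 and Il1b also led the day 3 sums over PBS, with 1745 and 434 UMIs at day 3, and macrophage RNA would account for 30.2% and 43.7% of them. The part of that RNA in these ratios was not tested beyond these shares.

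At day 7 the CD8 T cells were low in granzymes and interferon genes and high in Ccl5, Klf2 and beta-2-microglobulin. Of 629 genes that entered day 7 over day 3 without the T-poor barcode, 187 were called (29.7%), 46 higher (7.31%) and 141 lower (22.4%), and with all members 240 of 829 (29%), 55 higher (6.63%) and 185 lower (22.3%). TMM scaling, which adds -0.31 to every log2 ratio here, gave 36 higher and 293 lower. For genes induced by type I interferon the calls were 18 lower and 0 higher of 21 that entered, with a median of -1.91 against -0.15 over all genes, and 21 lower of 25 with all members. The granule list had 4 lower and 1 higher of 8, and 7 lower and 0 higher of 12 with all members. B2m, the invariant chain of class I MHC, was at 1416, 2366, 3088 and 7568 CPM over PBS and days 1, 3 and 7, with a log2 ratio for day 7 over day 3 of 1.29 (1.14 to 1.44) with all members and 1.08 (0.90 to 1.26) without the T-poor barcode. H2-K1 ran the other way, at 1590 CPM at day 7 and 4364 CPM at day 3. The T cell receptor signalling list, without the genes of the membership rule, had 1 higher of 3, the kinase gene Lck, with a log2 ratio of 1.09 (0.36 to 1.76) without the T-poor barcode and 0.71 (-0.03 to 1.37), within counting error, with all members. Over PBS, 134 of 368 genes were called at day 7 without the T-poor barcode (36.4%), with Ccl5 at a log2 ratio of 2.55 (1.94 to 3.22), Klf2 at 2.90 (1.92 to 4.06) and Il7r at -2.39 (-3.99 to -1.02). With all members 133 of 379 were called (35.1%), with Ccl5 at 2.16 (1.55 to 2.83) and Klf2 at 2.51 (1.53 to 3.68). The deepest PBS cell held 0 Ccl5 UMIs, and the Ccl5 ratios over PBS would be smaller without it.

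The same 4 libraries allow a test of the CD8 T cells against other lymphocytes, since each library holds all gates and so gives a pair. Counts were summed per library and gate and tested with edgeR's quasi-likelihood test with the library as a block and Benjamini-Hochberg adjustment, so that the residual spread includes differences of the gates between treatments. Against 373 T cells with Foxp3, 550 of 4526 genes passed an adjusted p of 0.05 (12.2%), 245 higher (5.41%) and 305 lower (6.74%) in CD8 T cells. Without T-poor and very deep barcodes, those above 25000 UMIs, 613 of 3406 passed (18%), 305 higher (8.95%) and 308 lower (9.04%). Genes that defined the gates were left out. Leaving out the day 1 or the day 3 library, which hold most of the cells, gave 251 and 266 calls, of 2175 and 2129 genes tested.

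Against the Foxp3-positive T cells the CD8 T cells were higher in Tcf7, Ly6c2, Nkg7, Klrd1 and Gzmc and lower in Gzmb. The granule list had 6 higher and 3 lower of 12 tested, and the list of NK receptors 2 higher (Klrd1 and Klrc1) and 1 lower (Klrg1) of 6. Tcf7 was at 177, 67.7, 61.0 and 121 CPM in CD8 T cells and 5.84, 1.61, 0 and 0 CPM in Foxp3-positive T cells over PBS and days 1, 3 and 7, a log2 fold change of 5.71 ± 0.59 (SE, 4 pairs of sums, edgeR adjusted p = 7.10e-09). Tcf7 was thus low within the CD8 T cells yet higher than in Foxp3-positive T cells in all 4 libraries. Nkg7 was at 460, 528, 1328 and 1451 CPM against 5.84, 58.0, 78.9 and 465 CPM, a log2 fold change of 3.35 ± 0.33. Ly6c2 was higher by 4.28 ± 0.37, Klrd1, which encodes the NK receptor CD94, by 4.02 ± 0.41 and the junctional adhesion gene Jaml by 4.63 ± 0.54, each in 4 of 4 libraries. Gzmc was higher by 3.96 ± 0.44, in 3 of 4 libraries. Gzmb was lower in CD8 T cells in 4 of 4 libraries, with a log2 fold change of -1.31 ± 0.28 (edgeR adjusted p = 0.000905), and missed the threshold without the day 1 library (edgeR adjusted p = 0.0642).

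Among the 305 genes lower in CD8 T cells than in Foxp3-positive T cells were genes of regulatory T cells and of costimulatory receptors. Penk, which encodes an enkephalin precursor, had a log2 fold change of -7.86 ± 0.58, Itgb8, which encodes an integrin chain that activates TGF-beta, -6.91 ± 0.66, and Ctla4 -2.92 ± 0.25, each lower in 4 of 4 libraries. The costimulatory receptor list had 8 lower and 0 higher of 10 tested, with a median of -2.07 against 0.00 over all genes, among them Icos, Tnfrsf9 and Tnfrsf18. The list of factors associated with exhaustion had 8 lower and 1 higher of 16. Tox, the chromatin factor of exhausted T cells, was lower, with a log2 fold change of -1.67 ± 0.39. Pdcd1 (0.47 ± 0.34, edgeR adjusted p = 0.441) and Lag3 (-0.25 ± 0.30, adjusted p = 0.701) did not pass, with 2 and 1 of 4 libraries higher in CD8 T cells. The immediate-early list had 8 higher and 1 lower of 22, including Fos, Fosb, Jun and Egr1, and the heat shock list 5 higher of 17; 3 of 14 macrophage genes tested, Ctsd, Spp1 and Cd63, were also higher in CD8 T cells, and their part in these calls was not tested. The type I interferon list had 3 higher and 2 lower of 41, and Isg15 did not pass (adjusted p = 0.219) but did without the day 3 library (-1.47, edgeR adjusted p = 0.0392). Glycolysis and hypoxia genes had 6 lower of 28 with all members and 15 lower of 23 without T-poor and very deep barcodes.

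**Figure D5:**
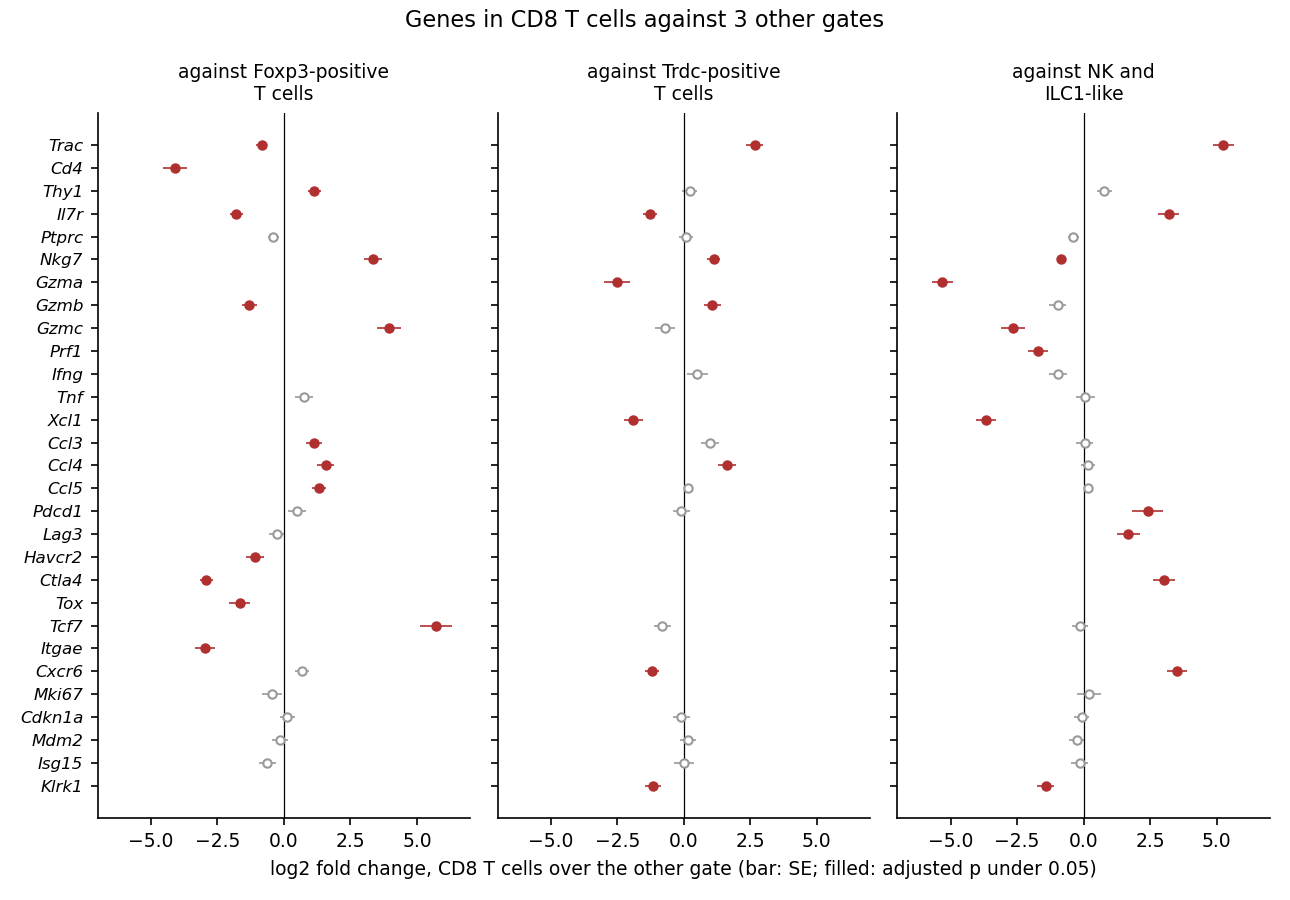
edgeR log2 fold change of CD8 T cells over Foxp3-positive T cells, over Trdc-positive T cells and over NK and ILC1-like gated cells (x axis, 1 panel each) for 29 of the fixed genes that could be tested (rows); bars are the standard error over 4 pairs of sums and filled points have an adjusted p under 0.05. Nkg7 is higher in CD8 T cells than in both T cell gates (3.35 and 1.12) and lower than in the NK and ILC1-like gate (-0.83).

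Against the 159 T cells with Trdc, the CD8 T cells were higher in Nkg7 and Gzmb and lower in Gzma, Xcl1 and immediate-early genes. Of 1534 genes tested 96 passed (6.26%), 33 higher (2.15%) and 63 lower (4.11%) in CD8 T cells. Without T-poor and very deep barcodes 98 of 1404 passed (6.98%), 34 higher (2.42%) and 64 lower (4.56%). The count was 42 without the day 1 library, 44 without the day 3 library and 4 with a macrophage limit of 0.5%. Nkg7 was higher in CD8 T cells by 1.12 ± 0.26 (edgeR adjusted p = 0.0058), Gzmb by 1.07 ± 0.31 (adjusted p = 0.0321) and Ccl4 by 1.62 ± 0.35 (adjusted p = 0.00275). Gzma (-2.52 ± 0.49), Xcl1 (-1.9 ± 0.36), Cxcr6 (-1.20 ± 0.27) and Il7r (-1.27 ± 0.27) were lower. The named genes lower in CD8 T cells were led by Cd163l1, a scavenger receptor gene of gamma-delta T cells, at -6.70 ± 0.47. The immediate-early list, mostly higher in CD8 T cells among its calls against Foxp3-positive T cells, had its calls in the other direction here, with 13 lower and 0 higher of 22 and a median of -0.86 against 0.02 over all genes, among them Fos, Jun, Junb and Cd69. The homing and residency list had 8 lower of 14, and none of 15 genes of interferon gamma and the class I pathway passed. Several of these calls missed the threshold with 1 library left out, Nkg7 without day 3 (edgeR adjusted p = 0.136), Il7r without day 1 (0.0794) and Gzmb without PBS (0.0772), and DESeq2 called neither Gzma (log2 fold change -2.94, adjusted p = 0.635) nor Gzmb (1.05, 0.142) nor Ccl4 (1.91, 0.0506).

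NK and ILC1-like gated cells, 167 barcodes with Ncr1 or Klrb1c and no CD3, differed from CD8 T cells in receptors and in the choice of granzymes. Of 2844 genes 75 passed (2.64%), 25 higher (0.879%) and 50 lower (1.76%) in CD8 T cells, and 102 of 2315 without T-poor and very deep barcodes (4.41%), 37 higher (1.6%) and 65 lower (2.81%). Without the day 1 library 43 passed. Gzma was at 142, 9.96, 219 and 0 CPM in CD8 T cells against 1619, 1535, 4716 and 2992 CPM in the NK and ILC1-like gate, a log2 fold change of -5.31 ± 0.39 (edgeR adjusted p = 5.94e-08), and Prf1 (-1.70 ± 0.38), Gzmc (-2.66 ± 0.45) and Nkg7 (-0.83 ± 0.18) were lower too, each in 4 of 4 libraries. The granule list had 5 lower and 0 higher of 13. Gzmb (-0.97 ± 0.31, adjusted p = 0.149) and Ifng (-0.97 ± 0.35, adjusted p = 0.253) did not pass. Trac was higher in CD8 T cells (5.25 ± 0.40), which goes with the gate rules, since members needed a CD3 UMI and the other gate had none. CD8 T cells were also higher in Cxcr6 (3.51 ± 0.37), in Il7r (3.19 ± 0.40) and in the checkpoint receptor genes Ctla4 (3.02 ± 0.42), Pdcd1 (2.41 ± 0.59, edgeR adjusted p = 0.0252, 3 of 4 libraries) and Lag3 (1.69 ± 0.42, edgeR adjusted p = 0.0289). Lag3 had too few counts to test without the T-poor and very deep barcodes. Nkg7 missed the threshold without the day 1 library (edgeR adjusted p = 0.0749) and Pdcd1 without the day 7 library (0.096), and DESeq2 called neither Pdcd1 (adjusted p = 0.999) nor Lag3 (0.428), while Gzmb passed without the day 1 library (-1.56, edgeR adjusted p = 0.00474), with no count filter (-1.09, adjusted p = 0.0106) and with a macrophage limit of 0.5% (-1.99, adjusted p = 0.00939). Ifng passed with no count filter (-1.12, edgeR adjusted p = 0.0306). Of the type I interferon list, 1 gene, Ifitm1, was higher and 0 were lower of 31 tested.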

How the data were processed

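Droplet libraries of cells sorted from TC-1 tumours were analysed, 1 library per group, as deposited. The deposited matrices hold whole-number counts, unnormalised UMIs of each gene in each barcode, from software version 3.1.0 per the file headers. Cell Ranger 3.1.0, Seurat 3.1.2 and the mouse build mm10 appear in the submitters' processing notes, without the step each served. The members, gene lists and promoter motifs were chosen with earlier results of these data known.

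Barcodes were kept at 500 or more genes and 10% or fewer mitochondrial UMIs. Members' counts were summed per library and compared as CPM ratios with exact conditional binomial 95% intervals, and shares have Clopper-Pearson intervals; both cover counting error only. No doublet caller was run. Some of the genes in the fixed lists are not reported here. A gene entered a comparison of days at 10 or more expected counts in the smaller sum and was called at 2-fold. A fold against 0 counts is a bound computed with 3 counts over the group's sum, and list medians hold such genes at their bound. Shares of cells were also computed after thinning to 1500 UMIs. The other gates share the limits on genes, mitochondrial UMIs and macrophage RNA and have no Cd8a or Cd8b1 UMI. They were compared with edgeR's quasi-likelihood test (filterByExpr, TMM scaling, library as block, Benjamini-Hochberg adjustment over all genes tested), on sums per library, without the genes of the gate rules. Because each library gives both sums, the pairing comes from the design.

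The genes named are 40 fixed genes, the 10 highest and 10 lowest per comparison by the interval bound nearer to 1 or by fold change among adjusted p under 0.05, and up to 4 per list; genes named beside these illustrate counts and were chosen after their values were seen. Gene positions are from the GENCODE vM21 annotation of mm10, promoters from RefSeq on GRCm38.p6. The tests were tried on simulated data with 200 changed genes, 100 of them changed 4-fold. Against the Foxp3-positive, Trdc-positive and NK and ILC1-like gates, 94, 67 and 86 of these 100 passed the count filter. Of those that passed, 85.1%, 97.0% and 95.3% were recovered. The simulated counts had the same spread for every gene and no difference between libraries, so recovery in the real data was not measured. DESeq2 served as an alternative; it gave no adjusted p for 439, 446 and 0 genes. Alternatives changed the normalization, the count filter, the limits of the membership rule, the thinning depth, the block and the barcodes or library left out. Tools were Python 3.11.15, numpy 2.4.6, scipy 1.17.1, pandas 2.3.3, matplotlib 3.10.9, Biopython 1.88, R 4.3.3, edgeR 4.0.16, limma 3.58.1 and DESeq2 1.42.0.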

Additional observations from a re-analysis of the deposited data

Results flagged for a closer look

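Granzyme transcripts were also found outside the CD8 T cells, in the barcodes that carried Cd8 and CD3 UMIs but were left out by the limit on macrophage RNA. In these barcodes, which no comparison above uses, Gzmf was at 893 CPM at day 1, 605 CPM at day 3 and 90.7 CPM at day 7, against 6.09 CPM (1 UMI) in PBS. It was found in 44 of 155 barcodes at day 1 (28.4%), 6 of 86 at day 3 (6.98%), 4 of 22 at day 7 and 1 of 19 in PBS. Of each library's Gzmf UMIs the CD8 T cells held 17.3% at day 1 and 63.3% at day 3, so at day 1 most of them lay elsewhere.

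Of the other granzymes of the cluster, Gzmd, Gzme and Gzmb were also above their PBS level there. Gzmd was at 242 CPM at day 1, against 12.2 CPM in PBS, and Gzme at 166 CPM at day 1 and 39.8 CPM at day 3, against 6.09 CPM in PBS. Gzmb was at 123 CPM at day 1, 306 CPM at day 3 and 128 CPM at day 7, against 24.4 CPM in PBS. Each of these exceeds the PBS level beyond counting error, on 1 to 4 UMIs in PBS, for example a ratio of 147 (95% interval 26.3 to 5795) for Gzmf at day 1 and of 12.6 (4.86 to 46.4) for Gzmb at day 3. The source of these transcripts was not tested.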

How the results depend on the processing

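No paired analysis was possible because each day and PBS has 1 library; against the other gates each library is a pair. Only part of the called genes were followed individually through the alternative runs, and none of their called ratios or fold changes changed direction. For the other called genes the direction under the alternatives was not examined. The share of CD8 T cells moved to 0.0124% in PBS with 2 or more Cd8 UMIs; at day 1 it was 1.26% with a macrophage limit of 2%, 0.281% with 0.5% and 0.468% with 2 or more Cd8 UMIs; at day 3 it was 2.52% and 1.23% with limits of 2% and 0.5%. Counts of genes past 2-fold moved with the count filter: at 5 expected counts, at 20 and with no filter they were 168, 14 and 8509 for day 1 over PBS (52 as reported), 191, 25 and 8321 for day 3 over PBS (74), 295, 61 and 4834 for day 7 over PBS (133), 1775, 553 and 4582 for day 3 over day 1 (1024), and 510, 113 and 7525 for day 7 over day 3 (240). TMM and DESeq2 scaling gave 105 and 89 for day 1 over PBS, with 104 and 87 of them higher, and 146 and 124 for day 3 over PBS, with 143 and 122 higher. DESeq2 scaling gave 106 higher and 41 lower for day 7 over PBS (82 and 51 as reported). With 2 or more Cd8 UMIs the counts were 1, 5, 11 and 414 for days 1, 3 and 7 over PBS and day 3 over day 1, and without the deepest 5% of members 19, 26, 64 and 480. A limit of 0.5% gave 49 for day 3 and 87 for day 7 over PBS, and leaving out the T-poor barcodes gave 32 for day 1 over PBS and 376 for day 3 over day 1. The T-poor barcodes and those above 25000 UMIs were set apart after the data were seen. The causes were not tested.

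Against the Foxp3-positive, Trdc-positive and NK and ILC1-like gates, edgeR without the block called 192, 5 and 22 genes, and a 0.5% limit 253, 4 and 24, which leaves fewer cells. DESeq2 called 318, 40 and 57. No count filter gave 184 and 245 against the Trdc-positive and NK and ILC1-like gates. Leaving out 1 library at a time gave 251 to 554, 42 to 123 and 43 to 96. For genes named one by one, an alternative under which the gene missed the count filter gave no value. Depth limits PBS most, where 3 counts correspond to 106 CPM.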

Other observations

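Variable segments of the T cell receptor were almost unseen in the CD8 T cells. The 35 Trbv genes measured had 0, 6, 2 and 0 UMIs in PBS and at days 1, 3 and 7, and the 128 Trav genes 0, 9, 3 and 1, so the deposited counts give no view of the receptors these cells carried. Eomes, a transcription factor of effector and memory CD8 T cells, had 21 UMIs in 11 of the 89 day 3 cells and 0 UMIs in the 7 PBS, 50 day 1 and 17 day 7 cells.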
